A study of Mus musculus with 24 samples.

Results

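The comparison described here is a difference of differences: how far the response of M2 adipose tissue macrophages to cold departed from the response of M1 adipose tissue macrophages of the same fat depot. For each gene it is the log2 fold change of Cold over Warm in M2 minus the log2 fold change of Cold over Warm in M1, called the difference below, so that a positive value means a rise that was larger, or a fall that was smaller, in M2. It was computed from 12 of the 24 libraries of the series, for every gene that passed a filter on low counts, 12981 of 21063. The source of all 4 groups was male C57BL/6J mice, whose epididymal fat was used, fed a high-fat diet from 6 weeks of age until they reached 38 to 42 g, at 18 to 20 weeks. Warm M1 and Warm M2 were taken from mice at thermoneutrality (29 to 30 °C), and Cold M1 and Cold M2 from mice kept for 7 days at 18 °C, moved to 4 °C for another 7 days and killed on day 14. Each group held 3 libraries, and each library pooled sorted cells from 5 mice, so a p-value measures the spread between pools. The labels name the sorted populations without their surface markers, so Itgax (the integrin CD11c) and Mrc1 (the mannose receptor CD206), which are commonly used to part such cells, may have been used in the sort.

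Macrophages of obese fat are a mixture. Resident cells scavenge proteins and debris and carry CD206, while cells that descend from blood monocytes take up lipid around dying adipocytes, present antigen on MHC class II and often carry CD11c. Type I interferon acts on nearly every macrophage and switches on a set of antiviral genes through a short promoter element. In cold, sympathetic nerves act on fat through noradrenaline and adipocytes release fatty acids.

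The 12 libraries held 14374696 to 24225250 counts. The macrophage list (20 genes such as Cd68 and Emr1, the gene for F4/80) summed, in CPM (each count scaled to a common library total), to 26700 to 27500 in Warm M1, 19600 to 26900 in Cold M1 and 32000 to 35100 in M2. RNA typical of adipose progenitors, the fibroblast-like cells sorted from the same fat, differed between the M1 groups. The progenitor list (26 genes) summed to 2753, 5770 and 2727 CPM in Warm M1 and to 26517, 11911 and 9171 in Cold M1, but to 2115 to 2835 in the 6 M2 libraries and to 87300 to 103000 in sorted progenitors. Library 2 of Warm M1 and library 1 of Cold M1 therefore stood apart from the others of their groups. Genes with a progenitor level under 10% of the mean macrophage level, 1127 of the genes tested, are called progenitor-poor and were also fitted on their own, with library sizes taken from these genes alone. Alternative fits on progenitor RNA (scaling on progenitor-poor genes, a covariate, progenitor libraries in the fit) are given with the other settings. In such bulk libraries fewer cells of a type and less RNA per cell cannot be told apart.

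Cold changed M1 and M2 in the same direction for most genes that moved in M2, and the difference was called for a small share of genes. In edgeR's quasi-likelihood test with Benjamini-Hochberg adjustment, which gave every adjusted p below, 300 of 12981 genes (2.31%) passed a threshold of 0.05 for the difference, 144 higher (1.11%) and 156 lower (1.2%) in M2 than in M1. The cold effect itself was called for 5705 genes in M1 (43.9%), 2910 higher (22.4%) and 2795 lower (21.5%), and for 1312 in M2 (10.1%), 573 higher (4.41%) and 739 lower (5.69%), and 1200 of the latter (91.5%) had the same sign in M1. The median difference over all genes was 0.026. Of the 144 higher genes, 102 had fallen in M1 without a call in M2, 21 had risen in M2 without a call in M1, and 18 had fallen in M1 and risen in M2. Of the 156 lower genes, 122 had risen in M1 without a call in M2, 15 had fallen in M2 without a call in M1, and 6 had done both.

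**Figure D1:**
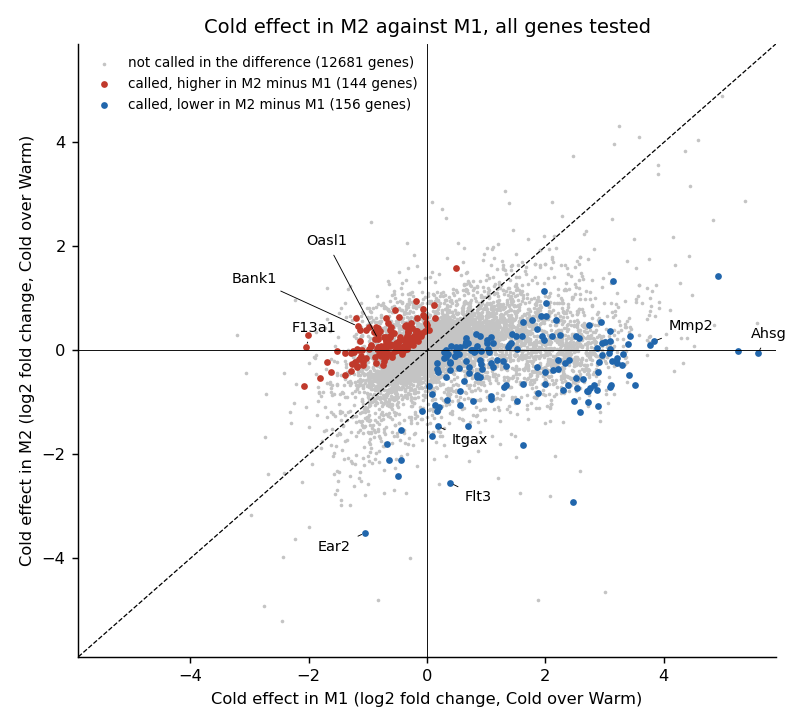
Cold effect of each of 12981 genes in M1 (horizontal axis) and M2 (vertical axis), both as log2 fold change of Cold over Warm; each point is a gene, the dashed line marks equal effects, and colours mark the 144 higher and 156 lower genes called in the difference. The higher genes lie mostly left of zero in M1, and many lower genes lie far to the right in M1 near zero in M2.

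The number of genes called changed with single libraries. It was between 23 and 41 when Warm M1 1 (27), Warm M1 3 (28), Warm M2 1 (41), Warm M2 2 (26), Warm M2 3 (29), Cold M2 2 (23) or Cold M2 3 (32) was left out, and was 146 without Cold M2 1 and 99 without Cold M1 2. It was 357 without Cold M1 1, 1188 without Cold M1 3 and 1982 without Warm M1 2. Among the lower genes, 107 of 156 (68.6%) had a higher mean level in progenitors than in Cold M1, against 26 of 144 higher genes (18.1%) and 44.2% of all genes tested. In the fit of progenitor-poor genes the difference was called for 179 of 1127 (15.9%), 60 higher (5.32%) and 119 lower (10.6%), and 111 to 257 were called as each library was left out in turn. Of the genes called in the fit over all genes, 55 higher and 16 lower ones were progenitor-poor, and 59 of these were also called there. All 59 had the same sign, but both fits used the same counts, so this is no independent check.

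**Figure D2:**
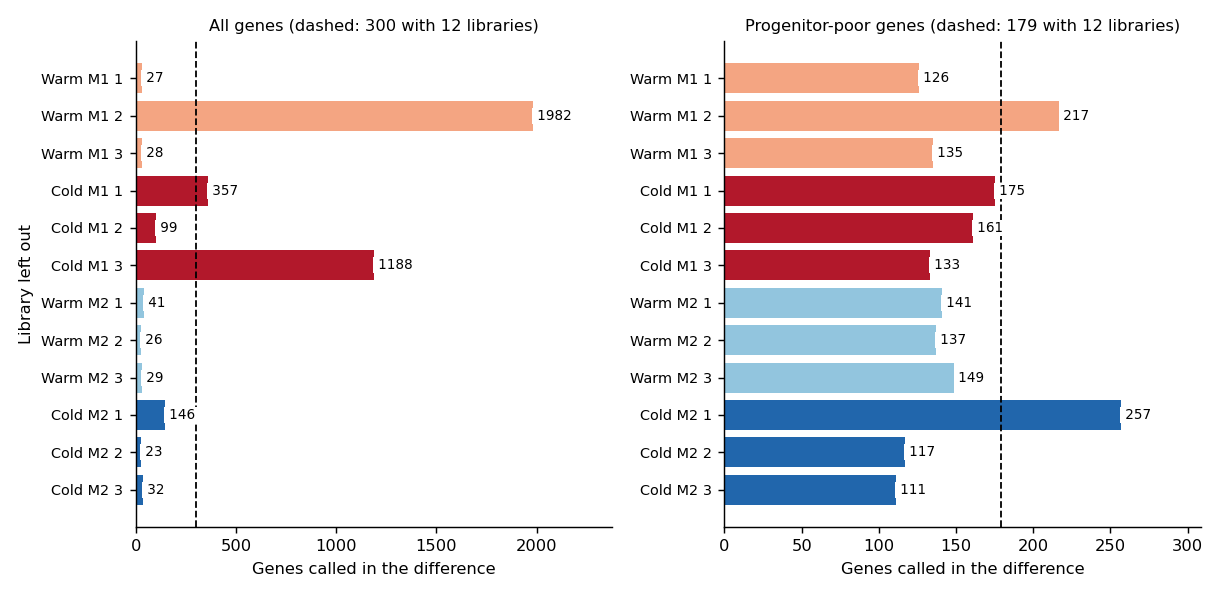
Genes called in the difference (horizontal axis, number of genes) when each of the 12 libraries was left out, for all genes (left) and for progenitor-poor genes fitted on their own (right); the dashed line is the number with all 12 libraries, 300 and 179. The number ranges from 23 to 1982 on the left and from 111 to 257 on the right.

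The 10 genes with the highest differences under the naming rule all fell in M1, and none was called in M2 in the fit over all genes. F13a1, the catalytic A subunit of coagulation factor XIII and a gene of M2 and resident macrophages, was at 579, 482 and 579.6 CPM in Warm M1, 91.9, 159 and 152 in Cold M1, 4765, 4048 and 4603 in Warm M2 and 4078, 5387 and 5307 in Cold M2. All Cold M1 libraries lay below all Warm M1 libraries, whereas the M2 groups overlapped. Its difference was 2.12 (SE 0.27, edgeR adjusted p = 0.00768), with a cold effect of -2.05 (edgeR adjusted p = 0.000133) in M1 and 0.07 (edgeR adjusted p = 0.848) in M2. The call was kept without each of the 12 libraries in turn, and the progenitor-poor fit gave 1.81 (SE 0.19, edgeR adjusted p = 0.000197).

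Bank1, an adaptor first described in B-cell receptor signalling, was at 21.4, 20.4 and 22.9 CPM in Warm M1, 6.46, 11.5 and 11.2 in Cold M1, 52.8, 49.6 and 55.7 in Warm M2 and 72.5, 81.0 and 75.1 in Cold M2. Cold M1 lay below Warm M1 and Cold M2 above Warm M2, with no overlap in either population. The difference was 1.63 (SE 0.22, edgeR adjusted p = 0.0106) and remained called without any 1 library. Its progenitor-poor value was 1.32 (SE 0.16, edgeR adjusted p = 0.000565), where both the fall in M1 and the rise in M2 were called, at -0.84 (edgeR adjusted p = 0.000143) and 0.49 (edgeR adjusted p = 0.00403).

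Ccl2 and Ccl4, both chemokine genes, were among these 10. Ccl2, the main ligand of the monocyte receptor CCR2, was at 387, 412 and 442 CPM in Warm M1, 141, 172 and 169.7 in Cold M1, 1272, 1264 and 1494 in Warm M2 and 1195, 1406 and 1494 in Cold M2. Cold M1 lay below Warm M1 and the M2 groups overlapped. The difference, 1.34 (SE 0.16, edgeR adjusted p = 0.00655), was kept without each library in turn. Progenitors held more of it than Cold M1, at 397 CPM in Warm and 211 CPM in Cold progenitors. Ccl4, a chemokine of activated macrophages, had a mean of 210 CPM in Warm M1 and 105 CPM in Cold M1 against 270 and 371 CPM in M2, and a difference of 1.42 (SE 0.27, edgeR adjusted p = 0.0384) that was kept in 4 of the 12 fits that left out a library. In the progenitor-poor fit its difference was 1.12 (SE 0.17, edgeR adjusted p = 0.00194), kept in all 12. Of the pro-inflammatory list, 4 of 28 members were called higher (Ccl2, Ccl4, Tlr2 and Il18) and none lower, against 1.11% and 1.2% of all genes, with a median of 0.26. In M1, 19 of 28 members fell (21.5% of all genes) and 3 rose, and in M2, 7 fell (5.69% of all genes) and 1 rose. In the progenitor-poor fit 3 of 12 members were called higher and 1 lower, against 5.32% and 10.6% of all genes there. With library sizes from progenitor-poor genes the median of all genes was -0.319. The list median lay 0.244 above it, so its positive direction rested on the reference. Tlr2, the receptor for bacterial lipoproteins, differed by 0.90 (SE 0.20, edgeR adjusted p = 0.0434), and Il18, an inflammasome cytokine, by 0.72 (SE 0.13, edgeR adjusted p = 0.0362), each kept in 3 of 12 fits without a library.

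The other genes with the highest differences were Padi4 (1.82), an enzyme that citrullinates histones, Pilrb1 (1.54), an activating paired receptor, Ms4a8a (1.51), a four-span membrane protein, Tspan32 (1.47), a tetraspanin, Clec2i (1.42), a C-type lectin, and Gfra2 (1.39), the receptor for neurturin. All 6 had fallen in M1, with cold effects from -2.08 (Gfra2) to -0.98 (Clec2i), and none was called in M2 over all genes. In the progenitor-poor fit Gfra2 also fell in M2, at -0.66 (edgeR adjusted p = 0.00814), and Ccl4 rose, at 0.42 (edgeR adjusted p = 0.0176). Pilrb1 has near-identical relatives, so its reads may be shared with them. Each of the 6 was called with the same sign in the progenitor-poor fit and in all 12 of its fits without a library, but in 3 to 5 of the 12 fits over all genes. The progenitor-poor fit added Cd209d and Cd209b, lectins of resident macrophages, and Aldoc, a glycolytic aldolase. Cd209d had means of 22.4 CPM in Warm M1, 5.71 in Cold M1, 388 in Warm M2 and 342 in Cold M2, and a difference there of 1.47 (SE 0.44, edgeR adjusted p = 0.0397). These 3 genes kept their calls in 5 of 12 fits, and the Cd209 genes are close copies of each other.

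**Figure D3:**
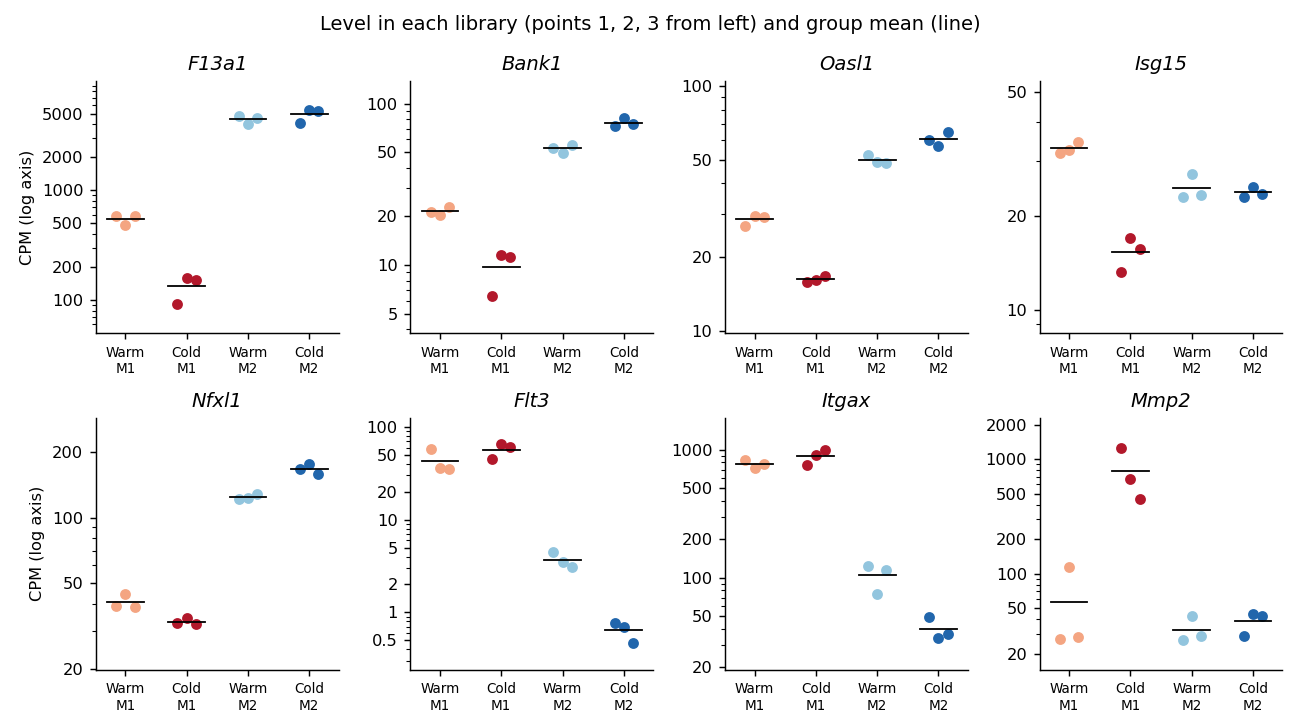
CPM on a log axis of 8 genes in each of the 12 libraries (points, libraries 1 to 3 from left to right) with the group mean (line). F13a1, Bank1, Oasl1 and Isg15 are lower in all Cold M1 than in all Warm M1 libraries, Nfxl1 moves in opposite directions, Flt3 and Itgax fall in M2, and Mmp2 is high in Cold M1 and in library 2 of Warm M1.

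Mrc1 was at 1713, 1717 and 1678 CPM in Warm M1, 756, 1118 and 1080 in Cold M1, 5622, 5820 and 5843 in Warm M2 and 5750, 6676 and 6455 in Cold M2. All Cold M1 libraries were lower than all Warm M1 libraries, and M2 overlapped. The difference was 0.87 (SE 0.17, edgeR adjusted p = 0.0384), and 0.55 (SE 0.11, edgeR adjusted p = 0.00823) among progenitor-poor genes. Cd86, which co-stimulates T cells, was at 73.1, 68.1 and 86.3 CPM in Warm M1, 33.2, 45.8 and 40.9 in Cold M1, 115, 112 and 134 in Warm M2 and 132, 129 and 146 in Cold M2. It fell by 0.95 in M1, and its difference was 1.05 (SE 0.18, edgeR adjusted p = 0.03), with 0.72 (SE 0.16, edgeR adjusted p = 0.0103) in the progenitor-poor fit. Ctsc, the lysosomal protease cathepsin C, fell by 1.08 in M1 and differed by 0.87 (SE 0.17, edgeR adjusted p = 0.0388). Over all genes the calls were kept in 5 (Mrc1), 6 (Cd86) and 4 (Ctsc) of 12 fits without a library. Among progenitor-poor genes each was kept in all 12.

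Interferon-stimulated genes formed the list with the most higher calls. Of 36 members tested, 10 were called higher (27.8%, against 1.11% of all genes) and none lower, and 34 had a positive difference. The count changed with single libraries. It was 2 without Warm M1 1, Warm M1 3, Warm M2 1, Warm M2 2, Warm M2 3, Cold M2 2 or Cold M2 3, 4 without Cold M1 2, 5 without Cold M2 1, and 11 to 14 without Cold M1 1, Cold M1 3 or Warm M1 2. Isg15 and Oasl1 kept their calls in all 12 of these fits, and the other 8 in 2 to 5. The median difference was 0.40. The median cold effect was -0.19 in M1, where 17 members fell and 4 rose (21.5% and 22.4% of all genes). It was 0.17 in M2, where 7 rose and none fell (4.41% and 5.69% of all genes). Under each alternative scaling, filter, test and model tried the median difference lay 0.35 to 0.54 above that of the genes tested with it. With library sizes from progenitor-poor genes, which moved the median of all genes from 0.026 to -0.319, 1 of 36 was called higher. The number was 2 with the replicate number as a block, 5 with M1 and M2 of a number paired, 6 with progenitor libraries in the fit and 16 with DESeq2. Of the 36, 4 were progenitor-poor. Progenitors expressed many members, Isg15 at 11.3 CPM in Warm and 10.1 CPM in Cold and Ifitm3 at 537 and 451 CPM.

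Many of these genes carry the interferon-stimulated response element near their start. The core of this element, GAAA and GAAA parted by any 2 bases, searched on both strands in the RefSeq promoters of build GRCm38.p6 from 250 bases before to 50 after the start, was found in 3.44% of 32851 promoters, in 376 of 9806 tested genes with a promoter (3.83%) and in 16 of 27 interferon list members with one. Of 7 called members with a promoter, 5 held it. They are shown because they are the called genes with the element, each 5′ to 3′ on the gene's strand with every match in capitals, overlapping matches joined. The windows are Isg15 at chr4:156200769-156201068 (minus strand), Ifit1 at chr19:34640639-34640938 (plus), Rsad2 at chr12:26456403-26456702 (minus), Ifitm3 at chr7:141010695-141010994 (minus) and Gbp3 at chr3:142559794-142560093 (plus).
Isg15: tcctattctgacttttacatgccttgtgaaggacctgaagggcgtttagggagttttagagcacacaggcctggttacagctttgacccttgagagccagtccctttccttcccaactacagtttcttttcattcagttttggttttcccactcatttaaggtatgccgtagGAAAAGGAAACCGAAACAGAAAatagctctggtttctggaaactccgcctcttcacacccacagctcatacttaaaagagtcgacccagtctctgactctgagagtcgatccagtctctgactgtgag
Ifit1: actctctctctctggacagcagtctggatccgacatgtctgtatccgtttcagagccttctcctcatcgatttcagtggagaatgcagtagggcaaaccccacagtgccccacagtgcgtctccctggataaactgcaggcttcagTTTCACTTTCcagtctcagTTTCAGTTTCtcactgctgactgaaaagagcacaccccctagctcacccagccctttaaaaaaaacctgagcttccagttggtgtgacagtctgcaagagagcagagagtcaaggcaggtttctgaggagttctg
Rsad2: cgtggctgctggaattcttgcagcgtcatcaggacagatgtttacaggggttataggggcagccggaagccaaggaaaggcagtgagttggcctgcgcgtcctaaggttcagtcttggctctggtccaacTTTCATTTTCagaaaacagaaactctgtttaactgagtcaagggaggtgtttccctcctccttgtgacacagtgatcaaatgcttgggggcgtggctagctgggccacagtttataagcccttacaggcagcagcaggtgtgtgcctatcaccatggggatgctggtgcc
Ifitm3: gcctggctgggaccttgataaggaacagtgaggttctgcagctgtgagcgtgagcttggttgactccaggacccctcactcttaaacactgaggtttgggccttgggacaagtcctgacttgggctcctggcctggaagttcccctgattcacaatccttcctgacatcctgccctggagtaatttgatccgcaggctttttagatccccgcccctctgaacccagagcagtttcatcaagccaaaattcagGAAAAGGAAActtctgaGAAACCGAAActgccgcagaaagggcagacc
Gbp3: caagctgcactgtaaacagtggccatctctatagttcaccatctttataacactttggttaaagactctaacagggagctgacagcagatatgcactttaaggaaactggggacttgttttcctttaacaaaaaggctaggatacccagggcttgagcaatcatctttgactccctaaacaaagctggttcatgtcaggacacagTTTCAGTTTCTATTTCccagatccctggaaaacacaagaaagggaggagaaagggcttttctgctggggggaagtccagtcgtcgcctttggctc

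Isg15, a ubiquitin-like protein that is conjugated to others after interferon, was at 31.9, 32.6 and 34.5 CPM in Warm M1, 13.3, 17.1 and 15.6 in Cold M1, 23.1, 27.3 and 23.4 in Warm M2 and 23.1, 24.8 and 23.6 in Cold M2. Cold M1 lay below Warm M1 and the M2 groups overlapped. Its difference was 1.01 (SE 0.13, edgeR adjusted p = 0.00768), with a cold effect of -1.13 (edgeR adjusted p = 8.65e-05) in M1 and -0.11 (edgeR adjusted p = 0.49) in M2. Oasl1, which restrains translation of the interferon regulator IRF7, was at 26.9, 29.5 and 29.3 CPM in Warm M1, 15.8, 16.2 and 16.8 in Cold M1, 52.5, 48.7 and 48.4 in Warm M2 and 60.0, 56.6 and 65.0 in Cold M2. Cold M1 lay below Warm M1 and Cold M2 above Warm M2, without overlap. The fall in M1 was called, at -0.83 (edgeR adjusted p = 9.57e-05). The rise in M2 was not called, at 0.21 (edgeR adjusted p = 0.0703). The difference was 1.04 (SE 0.10, edgeR adjusted p = 0.00485), the smallest adjusted p of the list, and 0.70 (SE 0.17, edgeR adjusted p = 0.0183) among progenitor-poor genes. Both calls over all genes were kept without each library in turn.

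Rsad2 (viperin, an antiviral enzyme) moved in M2 instead. It was at 9.28, 10.9 and 9.59 CPM in Warm M1, 10.5, 8.59 and 9.62 in Cold M1, 15.5, 17.4 and 17.2 in Warm M2 and 28.6, 28.2 and 27.4 in Cold M2. The M1 groups overlapped and Cold M2 lay above Warm M2. Its difference was 0.74 (SE 0.13, edgeR adjusted p = 0.033), kept in 4 of 12 fits without a library. Usp18, which removes ISG15 and dampens the interferon receptor, fell by 0.63 in M1 and differed by 0.90 (SE 0.16, edgeR adjusted p = 0.03). The remaining called members, outside the rule for naming, were Ifit1 (1.07), Gbp3 (0.80), Zbp1 (0.54), Dhx58 (0.41), Ifitm3 (0.39) and Irf9 (0.33). Stat2 and Ifi205 were chosen after their values were seen. Stat2, a transcription factor that carries the signal, had a difference of 0.05 (SE 0.15, edgeR adjusted p = 0.855). Ifi205, at 685 CPM in Warm progenitors, was the member farthest the other way, at -2.85 (SE 0.70, edgeR adjusted p = 0.052).

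A further group of genes moved in opposite directions, with calls in M1, in M2 and in the difference. There were 24 of them, 18 that fell in M1 and rose in M2 and 6 the other way. Nfxl1, a zinc-finger protein, was at 39.0, 44.2 and 38.6 CPM in Warm M1, 32.4, 34.2 and 32.3 in Cold M1, 122, 122 and 129 in Warm M2 and 167, 177 and 158 in Cold M2. Neither population overlapped between temperatures. Its effects were -0.32 (edgeR adjusted p = 0.00175) in M1 and 0.36 (edgeR adjusted p = 0.00276) in M2. The difference, 0.68 (SE 0.08, edgeR adjusted p = 0.00655), was kept without each library in turn. Over 22 alternative settings it ranged from 0.336 to 0.792, and its call was lost in 1. Nfxl1 was not progenitor-poor, so its fall in M1 was not measured in the progenitor-poor fit. There the M1 effects of Gpr160 and Il16 were -0.51 and -0.12, against -0.86 and -0.47 over all genes. The smaller M1 fall of Nfxl1 may therefore depend on the reference. Pde2a, a phosphodiesterase that breaks down cyclic AMP and cyclic GMP, was at 74.4, 81.6 and 63.6 CPM in Warm M1, 40.9, 59.8 and 52.3 in Cold M1, 184, 146 and 172 in Warm M2 and 266, 325 and 312 in Cold M2. Its groups did not overlap in either population, and its difference was 1.32 (SE 0.19, edgeR adjusted p = 0.0119), kept in 10 of 12 fits.

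Gpr160, an orphan receptor, fell by 0.86 in M1 and rose in M2 by 0.45, a difference of 1.31 (SE 0.18, edgeR adjusted p = 0.0113). Il16, a cytokine that acts through CD4, had effects of -0.47 and 0.65 and a difference of 1.11 (SE 0.16, edgeR adjusted p = 0.0131). Both differences were also called in the progenitor-poor fit, at 0.98 and 0.78, but there the M1 effect of Il16 was -0.12 (edgeR adjusted p = 0.308), so its fall in M1 was not called. Fam43a (1.26), Mob3c (0.93, a kinase activator of the MOB family), Mboat1 (1.19, a lysophospholipid acyltransferase), Pank1 (0.85, which starts coenzyme A synthesis), Jup (0.75, plakoglobin of cell junctions) and Ccdc142 (0.67) showed the same pattern. Fam43a and Mob3c kept their calls without each library, and Mboat1, Pank1, Jup and Ccdc142 in 2 to 5 of 12 fits.

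The 6 genes that rose in M1 and fell in M2 were Nxn, Anxa1, Emp1, Stac2, Ffar4 and Dnase1l3. Nxn, the thioredoxin-like nucleoredoxin, was at 10.0, 13.7 and 11.0 CPM in Warm M1, 15.2, 14.3 and 14.7 in Cold M1, 7.97, 7.71 and 8.38 in Warm M2 and 4.40, 4.04 and 4.62 in Cold M2. Neither population overlapped, and the difference of -1.28 (SE 0.16, edgeR adjusted p = 0.00768) was kept without each library in turn. Progenitors held 29.9 CPM of Nxn in Warm and 15.9 in Cold, and their part in its rise in M1 was not tested. Anxa1, a phospholipid-binding protein that limits inflammation, was at 1277, 1364 and 1225 CPM in Warm M1, 1618, 1641 and 1871 in Cold M1, 692, 638 and 651 in Warm M2 and 597, 485 and 518 in Cold M2. All Cold M1 libraries lay above Warm M1 and all Cold M2 libraries below Warm M2, with a difference of -0.77 (SE 0.12, edgeR adjusted p = 0.0205). Progenitors held 1977 CPM of Anxa1 in Warm and 1675 in Cold, more than most macrophage libraries, and their part in its rise in M1 was not tested.

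Ffar4, the receptor GPR120 for long-chain fatty acids, and Dnase1l3, a nuclease that digests extracellular DNA, were progenitor-poor. Ffar4 was at 5.41, 4.20 and 4.99 CPM in Warm M1, 6.58, 6.68 and 8.59 in Cold M1, 1.17, 0.984 and 0.849 in Warm M2 and 0.598, 0.278 and 0.595 in Cold M2, with no overlap in either population. Its difference was -1.62 (SE 0.35, edgeR adjusted p = 0.0431) and -1.97 (SE 0.36, edgeR adjusted p = 0.00429) among progenitor-poor genes. Dnase1l3 was at 1.54, 2.14 and 2.86 CPM in Warm M1, 3.34, 5.54 and 5.08 in Cold M1, 29.3, 28.2 and 40.9 in Warm M2 and 16.4, 18.0 and 21.3 in Cold M2. Its M1 libraries rose from a low level and its M2 libraries fell from a higher one, a difference of -1.96 (SE 0.34, edgeR adjusted p = 0.03), with -2.27 (SE 0.31, edgeR adjusted p = 0.00113) in the progenitor-poor fit. Stac2 (-1.35), an adaptor of calcium channels, and Emp1 (-0.84), an epithelial membrane protein, each kept their calls in 7 of 12 fits. Progenitors held 24.1 CPM of Stac2 in Warm and 20.8 in Cold, against a mean of 35.4 in Cold M1. They held 486 and 417 CPM of Emp1, against 353 in Cold M1, and their part in these M1 rises was not tested.

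Among the lower genes were markers of dendritic cells and of monocyte-derived macrophages that fell in M2. Flt3, the receptor that sustains dendritic cells and their precursors, was at 57.3, 35.7 and 35.3 CPM in Warm M1, 45.3, 65.5 and 60.3 in Cold M1, 4.50, 3.47 and 3.11 in Warm M2 and 0.769, 0.696 and 0.463 in Cold M2. The M1 groups overlapped, while all Cold M2 libraries lay below 1 CPM and all Warm M2 libraries above 3 CPM. The difference was -2.94 (SE 0.40, edgeR adjusted p = 0.0106), kept without each library in turn, and -3.29 (SE 0.34, edgeR adjusted p = 0.000197) in the progenitor-poor fit. In that fit Flt3 also rose in M1, by 0.749 (edgeR adjusted p = 0.00333). Itgax was at 828, 728 and 782 CPM in Warm M1, 764, 915 and 1003 in Cold M1, 125, 75.2 and 116 in Warm M2 and 49.8, 34.0 and 36.3 in Cold M2. The M1 groups overlapped and Cold M2 lay below Warm M2, with a cold effect of -1.46 (edgeR adjusted p = 0.00163). The difference was -1.64 (SE 0.27, edgeR adjusted p = 0.0284), kept in 6 of 12 fits, and -1.98 (SE 0.25, edgeR adjusted p = 0.000661) among progenitor-poor genes, kept in all 12. With progenitor-poor genes Itgax also rose in M1, by 0.535 (edgeR adjusted p = 0.0199). Over all genes it was the only called member of the lipid-associated list.

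Coagulation and matrix genes of monocytes were next. F10, coagulation factor X, was at 84.8, 81.4 and 91.4 CPM in Warm M1, 50.3, 70.7 and 71.2 in Cold M1, 11.5, 10.7 and 9.97 in Warm M2 and 3.55, 2.02 and 1.98 in Cold M2. Both populations fell without overlap, with cold effects of -0.44 in M1 and -2.10 in M2. The difference was -1.66 (SE 0.26, edgeR adjusted p = 0.0205), with -2.00 (SE 0.21, edgeR adjusted p = 0.000197) among progenitor-poor genes. In that fit the M1 effect was -0.095 (edgeR adjusted p = 0.571), so the fall of F10 in M1 was not called. Fn1, fibronectin, fell from a mean of 11380 to 7376 CPM in M1 and from 2462 to 595 CPM in M2, a difference of -1.47 (SE 0.25, edgeR adjusted p = 0.03), and was itself abundant in progenitors. Ear2, an eosinophil-type ribonuclease of monocytes whose close relatives may share its reads, was at 238, 171 and 239 CPM in Warm M1, 77.6, 122 and 119 in Cold M1, 37.1, 33.5 and 27.6 in Warm M2 and 5.09, 2.23 and 1.06 in Cold M2. It fell in both populations, with effects of -1.05 and -3.51 and a difference of -2.46 (SE 0.48, edgeR adjusted p = 0.0388) and -2.82 (SE 0.41, edgeR adjusted p = 0.00183) among progenitor-poor genes. Of the monocyte list, 1 of 18 was called higher (F13a1, 5.56% against 1.11% of all genes), with a list median of -0.40. The 3 called lower were F10, Fn1 and Hp (16.7% against 1.2%). Hp, haptoglobin, differed by -2.49 (SE 0.47, edgeR adjusted p = 0.0367), and progenitors held 224 to 237 CPM of it.

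Clec9a and Xcr1, genes of the cross-presenting dendritic subset, were lower, from few counts. Clec9a, a receptor for dead cells on that subset, was at 5.55, 6.25 and 3.78 CPM in Warm M1, 27.0, 9.86 and 10.7 in Cold M1, 1.91, 1.14 and 1.30 in Warm M2 and 0.598, 0.348 and 0.264 in Cold M2. All Cold M1 libraries lay above Warm M1 and all Cold M2 libraries below Warm M2. Its difference was -3.44 (SE 0.69, edgeR adjusted p = 0.0388) over all genes and -3.86 (SE 0.86, edgeR adjusted p = 0.011) among progenitor-poor genes, where the call was kept in all 12 fits, against 4 of 12 over all genes. Xcr1, the chemokine receptor of the same cells, was at or below 1.28 CPM in every Warm library, at 8.92, 3.04 and 2.23 CPM in Cold M1 and at 0.128, 0 and 0 CPM in Cold M2. Its difference of -5.38 (SE 1.20, edgeR adjusted p = 0.0458) rests on these low levels and depends on the prior count of the fit. Of the dendritic cell list, 3 of 20 were called lower (15% against 1.2% of all genes) and none higher, with a median of -0.66. Its summed level was alike, 2590 to 2900 CPM over the 12 libraries. Further lower genes named from the progenitor-poor fit were Btla (-3.42), an inhibitory receptor, Il12b (-2.83), a chain of interleukin-12, Gpr171 (-2.61), Fcrla (-2.58), Bcl11a (-2.34), a transcription factor of lymphoid and dendritic cells, and Mucl1 (-2.49). These 6 lay at 13.9 CPM or less in every library, and none was called over all genes. Their calls there were kept in 11 (Btla), 10 (Il12b), 9 (Gpr171), 7 (Fcrla), 5 (Bcl11a) and 2 (Mucl1) of 12 fits. Mucl1 fell in both populations, with effects of -2.75 in M1 and -4.91 in M2 over all genes.

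Most MHC class II genes fell in both populations, and the size of the gap depended on the reference. Over all genes 11 of 15 members of the presentation list fell in M1 (21.5% of all genes) and 8 in M2 (5.69%), with median effects of -0.88 and -1.36. Those that fell in M1 included Cd86, Cd80 and Cd40, none of which was called in M2. The difference was called for Cd86 alone, with a list median of -0.48. In the progenitor-poor fit, which held 14 members, 11 were called lower and 1 (Cd86) higher, against 10.6% and 5.32% of all genes there. The list median was -0.88 against -0.163 for all genes of that fit. In that fit H2-Oa, H2-Ob and H2-Eb2 rose in M1, by 0.91 (edgeR adjusted p = 0.0035), 0.48 (edgeR adjusted p = 0.0355) and 1.22 (edgeR adjusted p = 0.0304). Ctss also rose in M1 there, by 0.46 (edgeR adjusted p = 0.000287). The members named here were chosen after their values were seen. H2-Aa, the alpha chain of I-A, was at 10740, 9343 and 11040 CPM in Warm M1, 4705, 6512 and 6894 in Cold M1, 5335, 6637 and 6603 in Warm M2 and 2935, 2107 and 2202 in Cold M2. Its cold effect in that fit was -0.45 (edgeR adjusted p = 0.00374) in M1 and -1.41 (edgeR adjusted p = 1.51e-06) in M2, and the difference was -0.95 (SE 0.15, edgeR adjusted p = 0.00194). Cd74, the invariant chain, differed by -0.80 (SE 0.14, edgeR adjusted p = 0.00319), H2-DMb2, a chain of the peptide-exchange factor, by -1.55 (SE 0.31, edgeR adjusted p = 0.0073), and Ciita, the master regulator of the locus, by -0.61 (SE 0.16, edgeR adjusted p = 0.027). Over all genes the same members had differences of -0.62 (SE 0.23, edgeR adjusted p = 0.133), -0.48 (SE 0.23, edgeR adjusted p = 0.222), -1.22 (SE 0.39, edgeR adjusted p = 0.0931) and -0.27 (SE 0.21, edgeR adjusted p = 0.46).

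**Figure D4:**
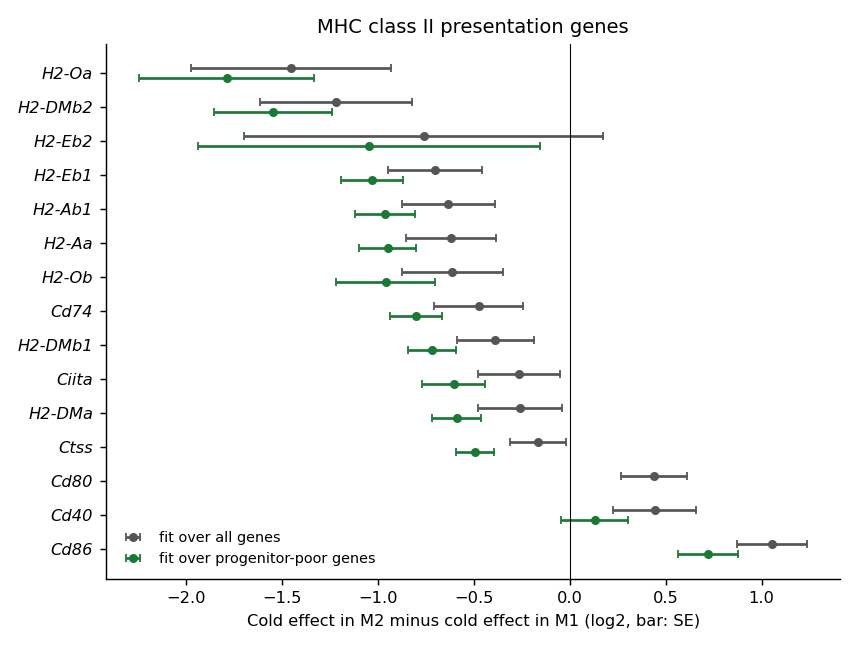
Difference (cold effect in M2 minus cold effect in M1, log2, with SE) of the 15 members of the MHC class II presentation list in the fit over all genes and in the fit over progenitor-poor genes, which held 14 of them. The progenitor-poor values lie to the left of the all-gene values. In that fit 11 members were called lower and Cd86 higher, against 10.6% and 5.32% of all its genes.

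Of 29 resident members, 1 was called higher (Mrc1, 3.45% against 1.11% of all genes) and 4 lower (Vsig4, Ccl8, Colec12 and Igf1, 13.8% against 1.2%), with a median of 0.26. Of 23 in the progenitor-poor fit, 4 were called higher and 3 lower, against 5.32% and 10.6% of all genes there. Igf1, a growth factor, was named after its values were seen. Vsig4, the complement receptor CRIg, was at 1.54, 1.67 and 1.31 CPM in Warm M1, 4.72, 6.68 and 6.73 in Cold M1, 37.6, 35.0 and 34.5 in Warm M2 and 77.6, 89.0 and 82.2 in Cold M2. Cold raised it in both populations without overlap, by 1.98 in M1 and 1.15 in M2, and the difference was -0.83 (SE 0.17, edgeR adjusted p = 0.0388), with -1.15 (SE 0.17, edgeR adjusted p = 0.00194) among progenitor-poor genes. Ccl8, an eosinophil and T-cell chemokine, was at 4.80, 7.28 and 5.18 CPM in Warm M1, 8.36, 10.8 and 6.56 in Cold M1, 443, 439 and 530.4 in Warm M2 and 221, 334 and 304 in Cold M2. It fell by 0.78 in M2, overlapped in M1 and differed by -1.34 (SE 0.29, edgeR adjusted p = 0.0431). Over all genes the call of Vsig4 was kept in 3 and that of Ccl8 in 2 of 12 fits without a library. Both were kept in all 12 among progenitor-poor genes. Slc40a1, the iron exporter ferroportin, was at 1.91, 2.95 and 1.50 CPM in Warm M1, 13.9, 24.9 and 18.1 in Cold M1, 49.8, 38.4 and 56.3 in Warm M2 and 275, 331 and 261 in Cold M2. It rose strongly in both, by 3.13 in M1 and 2.52 in M2, and its difference of -0.61 (SE 0.34, edgeR adjusted p = 0.284) did not pass the test.

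The lipid-associated list had a median difference of -0.40, with 1 of 24 called lower (4.17% against 1.2% of all genes) and 4 with a positive difference. In the progenitor-poor fit 4 of 8 were called lower, against 10.6% of all genes there. In M1, 19 of its members rose and 1 fell (22.4% and 21.5% of all genes), at a median of 0.66. In M2, 6 rose and 1 fell (4.41% and 5.69% of all genes), at 0.27. Chosen after their values were seen, Mmp12 differed by -0.99 (SE 0.29, edgeR adjusted p = 0.0728), Ctsk by -0.89 (SE 0.21, edgeR adjusted p = 0.0506) and Gpnmb by -0.71 (SE 0.26, edgeR adjusted p = 0.122), none past the test. Nearer to 0 were Cd36 (0.02), the fatty acid transporter, which rose by 0.87 in M1 and 0.89 in M2, and Spp1 (-0.04), osteopontin, which rose by 1.04 and 1.00. Cd36 and Spp1 were also chosen after their values were seen. Antioxidant genes were lower for 4 of 24 members, Mgst1, Srxn1, Me1 and Nqo1 (16.7% against 1.2% of all genes), and higher for none, and these calls were kept in 2 or 3 of 12 fits without a library. In M1, 15 members rose and 1 fell (22.4% and 21.5% of all genes), and in M2, 10 rose and 1 fell (4.41% and 5.69%). Mgst1, a microsomal glutathione transferase, was at 289 CPM in Warm progenitors against 114 CPM in Cold M1. Nqo1, a quinone reductase induced by NRF2, was at 0.793, 1.03 and 0.92 CPM in Warm M1, 9.79, 9.31 and 5.41 in Cold M1, 0.978, 0.673 and 0.906 in Warm M2 and 2.31, 2.78 and 1.72 in Cold M2. It rose in both populations, by 3.14 and 1.34, with a difference of -1.80 (SE 0.41, edgeR adjusted p = 0.0463) that was kept in 2 of 12 fits without a library. Srxn1, which repairs oxidised peroxiredoxins, rose in M1 by 1.09 and differed by -0.83 (SE 0.17, edgeR adjusted p = 0.0388).

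Of 24 sterol synthesis genes, 2 were called higher (8.33% against 1.11% of all genes), none lower, and 22 had a positive difference, with a median of 0.35. With library sizes from progenitor-poor genes the median of all genes was -0.319 and that of the list lay 0.316 above it, so the positive direction rested on the reference. In M1, 14 members fell and none rose (21.5% and 22.4% of all genes), and in M2, 4 fell and 2 rose (5.69% and 4.41%). Insig1, which holds the sterol sensor in the endoplasmic reticulum, was at 48.5, 52.2 and 58.2 CPM in Warm M1, 43.6, 41.9 and 41.4 in Cold M1, 48.3, 47.1 and 51.4 in Warm M2 and 65.0, 62.2 and 60.1 in Cold M2. It fell in M1 and rose in M2 without overlap, with a difference of 0.63 (SE 0.12, edgeR adjusted p = 0.0351). Lss, lanosterol synthase, rose in M2 by 0.37 and differed by 0.55 (SE 0.12, edgeR adjusted p = 0.0393). Both calls were kept in 3 of 12 fits without a library.

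Under the naming rule, with its minimum mean of 5 CPM, the lowest differences over all genes belonged to genes that progenitors express and that rose in M1. Of the matrix list, 7 of 36 were called lower (19.4% against 1.2% of all genes), none of 36 had a positive difference, and the median was -2.97. In M1, 33 members rose (22.4% of all genes), and in M2 none was called. Mmp2, a gelatinase of fibroblasts, was at 26.7, 115 and 28.0 CPM in Warm M1, 1260, 669 and 446 in Cold M1, 26.4, 42.9 and 28.4 in Warm M2 and 28.6, 44.6 and 42.5 in Cold M2. Cold M1 lay above Warm M1, in which library 2 was the highest, and the M2 groups overlapped. The difference was -3.66 (SE 0.78, edgeR adjusted p = 0.0408). The summed matrix list was 4345, 17006 and 4456 CPM in Warm M1 and 60991, 33509 and 23193 CPM in Cold M1 against 3223 to 7223 CPM in M2. A covariate made from these genes is no test of them.

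The 10 lowest genes by the rule for naming were Ahsg (-5.64), Fgf10 (-5.27), Adam12 (-4.18), Lrp3 (-3.96), Mmp3 (-3.90), Nav3 (-3.80), Gpm6b (-3.78), Igsf3 (-3.77), Cyp7b1 (-3.70) and Bmper (-3.67). All 10 rose in M1, none was called in M2, and none was progenitor-poor. Ahsg, the serum glycoprotein fetuin-A, was at 0.0933, 0.3 and 0.145 CPM in Warm M1, 12.3, 8.54 and 6.52 in Cold M1, 0.0489, 0.311 and 0.34 in Warm M2 and 0.128, 0.139 and 0.463 in Cold M2. It was kept in 7 of 12 fits without a library, the others in 3 or 4. Further genes of this kind were Pcolce (-3.05), which aids collagen processing, Lama2 (-3.45), a laminin chain, Lum (-3.50), the proteoglycan lumican, Serpinf1 (-3.13), which encodes PEDF, Colec12 (-2.25), a scavenger receptor, and Heph (-3.15), a ferroxidase. Pdgfra (-2.90 (SE 0.85, edgeR adjusted p = 0.0743)), the receptor that defines progenitors, and Dcn (-2.94 (SE 0.73, edgeR adjusted p = 0.0529)), decorin, shared the direction and did not pass the test.

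No macrophage core gene was called over all genes. Emr1 differed by -0.12 (SE 0.12, edgeR adjusted p = 0.571) and Cd68 by -0.04 (SE 0.12, edgeR adjusted p = 0.869), and none of 19 core members was called, with a median of 0.22. In the progenitor-poor fit both were lower, at -0.45 (SE 0.11, edgeR adjusted p = 0.0179) and -0.37 (SE 0.12, edgeR adjusted p = 0.0491), so their place depended on the reference. Fgfr1, a receptor for FGF21, differed by 0.34 (SE 0.22, edgeR adjusted p = 0.34), and its co-receptor Klb lay at 0.0566 to 0.557 CPM, below the filter.

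Other lists held few calls. Immediate early genes had 2 of 24 called higher (8.33% against 1.11% of all genes), Ier3 (0.77) and Zfp36 (0.46). The unfolded protein response had 1 of 22 called higher (4.55%), Ppp1r15a (0.65). Of the 22, 19 fell in M1 (21.5% of all genes) and 14 in M2 (5.69%). Lipe, hormone-sensitive lipase, fell by 0.64 in M1 and differed by 0.57 (SE 0.11, edgeR adjusted p = 0.0388). Cell cycle genes had no call, a positive difference for 35 of 38 and a median of 0.28. Of the 38, 23 fell in M1 (21.5% of all genes), at a median of -0.385, and none was called in M2. In the progenitor-poor fit the 15 members present had a median difference of -0.09. Their median M1 effect was 0.003, so a fall in M1 was not seen there. Fatty acid oxidation (median 0.045 over 27 genes), respiratory chain (0.126 over 29) and glycolysis and hypoxia (-0.032 over 29) had no call. Mast cell genes rose in both populations, 7 of 9 in M1 (22.4% of all genes) and 4 in M2 (4.41%), at medians of 3.16 and 3.57, without a called difference. Endothelial genes had a median of 1.34 and no call, and library 2 of Warm M1 held 796 CPM of their sum against 263 and 291 CPM in the other two.

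**Figure D5:**
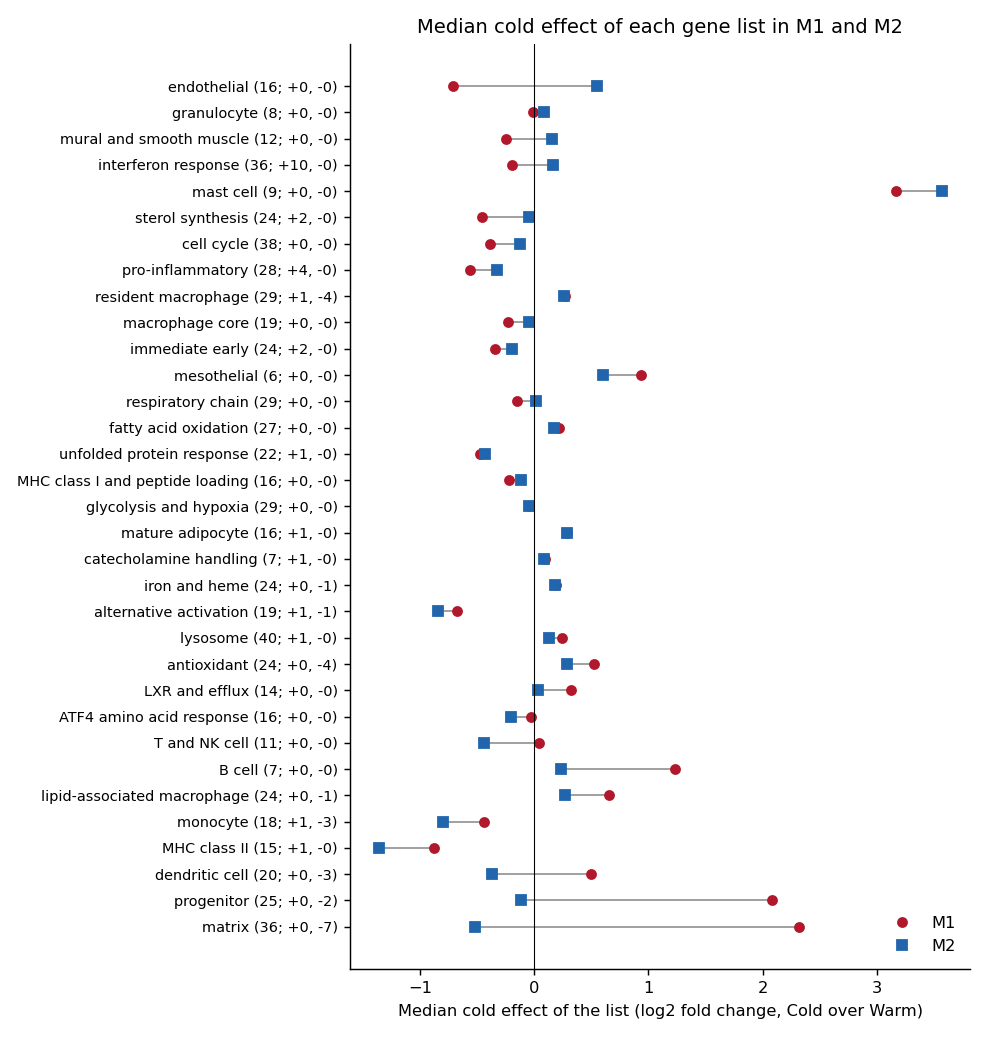
Median cold effect (log2 fold change, Cold over Warm) of each gene list in M1 (circles) and M2 (squares); in parentheses the number of members tested and the number called higher (+) and lower (-) in the difference. Lists are ordered by median difference, from the matrix list (-2.97) at the bottom to the endothelial list (1.34) at the top; interferon response has 10 of 36 called higher, or 1 of 36 with library sizes from progenitor-poor genes.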

How the data were processed

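The deposited values are raw read counts per gene, made by the authors from poly-A selected libraries prepared without strand marking, per the labels. CASAVA 1.8, GSNAP, SAMtools and the build GRCm38 are named per the submitters' processing notes, while the counting program is not given in the sources used here, nor is the annotation. Without strand, overlapping and antisense genes cannot be told apart. The 27 rows with a date in place of a symbol (0.148% to 0.192% of counts) were left out. The 12 Warm and Cold macrophage libraries were fitted in R 4.3.3 with edgeR 4.0.16 (filterByExpr, TMM, glmQLFit, glmQLFTest, 1 mean per group), with Benjamini-Hochberg adjustment over all genes tested. SE is the log2 value over the square root of F, and CPM is counts per 1000000 of a library total. Progenitor libraries gave levels, set which genes were progenitor-poor and entered an alternative fit, but not the main fits. The 6 libraries of antibody-treated mice are not used here. DESeq2 1.42.0 and other settings were alternatives. Scripts were tested on simulated data.

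The comparison, the 34 gene lists and the naming rule were chosen with earlier results of these data known. The rule took called genes with an absolute log2 difference of at least 1 and a mean of at least 5 CPM, 10 each way, over all genes and among progenitor-poor genes, up to 10 each way that moved oppositely, up to 4 called members per list, and 9 genes in any case. The text describes part of the genes that qualify, and says where a gene was chosen otherwise. Libraries of 1 group differed by more than sampling noise. Some items are not reported here.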

Additional observations from a re-analysis of the deposited data

Results flagged for a closer look

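The cold effects of M1 and M2 differed, by the test of the difference itself, for 300 genes. Among them, 16 named genes moved in opposite directions in M1 and M2, each direction called and the difference tested. The log2 differences (M2 minus M1) of those that fell in M1 and rose in M2 were 1.32 for Pde2a, 1.19 for Mboat1, 1.11 for Il16, 1.31 for Gpr160, 1.26 for Fam43a, 0.85 for Pank1, 0.93 for Mob3c, 0.75 for Jup, 0.67 for Ccdc142 and 0.68 for Nfxl1. For those that rose in M1 and fell in M2 they were -1.96 for Dnase1l3, -1.62 for Ffar4, -1.35 for Stac2, -0.77 for Anxa1, -1.28 for Nxn and -0.84 for Emp1. Of the genes that fell in M1 and rose in M2, only Il16 and Gpr160 were in the progenitor-poor fit. There the M1 fall of Gpr160 was called and that of Il16 was not. For the others the M1 fall was not measured in that fit, and it may depend on the reference. With all genes scaled on progenitor-poor genes, 17 genes were called in opposite directions, against 24. With 3 libraries per group, no library was tested for standing apart in the level of a single gene.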

How the results depend on the processing

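Of 73 named genes called over all genes, 1631 values under alternatives held 0 of the opposite sign, 980 with a call and 651 without. As each library was left out in turn, 23 to 1982 genes were called in the difference, 17 to 595 higher and 5 to 1387 lower, 3 to 31 in opposite directions, 4064 to 6038 in M1 and 531 to 1802 in M2. Among progenitor-poor genes these ranges were 111 to 257, 37 to 73, 74 to 184, 11 to 32, 436 to 592 and 309 to 423. Leaving out Warm M1 2 and Cold M1 1 together, chosen after seeing the data, gave 2487 (956 higher, 1531 lower, 144 opposite, 2887 in M2). DESeq2 called 1482 (501 higher, 981 lower, 39 opposite). Scaling on progenitor-poor genes gave 190 (24 higher; 672 in M2), the progenitor-poor fit 179 (60 higher; 553 in M1, 393 in M2), and the fit with progenitor libraries 685 (544 lower, 12 opposite; 790 in M2). With progenitor and matrix RNA as a covariate the calls were 231 higher, 93 lower and 83 opposite, with 658 in M1 and 3111 in M2. Without a filter 236 were lower and 10 opposite. The share of calls that were higher, 144 of 300, was 33.8% with DESeq2, 38.1% without a filter, 20.6% with progenitor libraries, 12.6% on progenitor-poor scaling, 36.2% with pools as blocks and 71.3% with the covariate. Signs turned for Cd68 (-0.117 to 0.034 as a library was left out, 0.034 without Cold M1 3, 0.002 without Warm M1 1), Fgfr1 (-0.032 on progenitor-poor scaling) and Pdgfra (0.38 with the covariate), none of them called. The cause was not tested for any of these changes. With the replicate number as a block, 73 genes were called (34 higher, 39 lower, 11 opposite), and with M1 and M2 of a number taken as a pair 334 were called. Libraries with the same number were not taken as paired, since the labels do not say whether they came from the same mice. The deviations of M1 and M2 from their group means correlated at 0.18 to 0.30 in Warm but at -0.37 to -0.09 in Cold. These correlations cannot decide the pairing, since progenitor RNA also differed between the M1 libraries of a group.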

Other observations

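The genes whose difference stayed called in all 12 fits that left out a library numbered 20 over all genes, 15 higher and 5 lower. Besides those described above they were, chosen after their values were seen, Sema4b (1.23), Slc25a37 (1.09), the mitochondrial iron importer mitoferrin, Slc28a2 (0.89), a nucleoside transporter, Gbp9 (0.94), Ifi27l2a (0.91) and Ifi47 (0.68), which interferons induce, and on the lower side Bhlhe40 (-1.29), Ccnd2 (-1.17) and Nav2 (-0.98). Bhlhe40, a transcription factor that represses Il10 in macrophages, was at 329, 287 and 354 CPM in Warm M1, 363, 393 and 376 in Cold M1, 64.6, 64.2 and 52.1 in Warm M2 and 31.6, 30.1 and 27.3 in Cold M2. It fell by 1.09 in M2 without overlap and was not called in M1, and progenitors held 411 CPM in Warm and 479 CPM in Cold. Ifi47, an interferon-induced GTPase, was at 30.7, 29.6 and 30.1 CPM in Warm M1, 18.3, 21.6 and 21.6 in Cold M1, 42.8, 44.4 and 42.4 in Warm M2 and 49.8, 51.4 and 44.6 in Cold M2, with a difference of 0.68 (SE 0.10, edgeR adjusted p = 0.0126).

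Ifnb1, which encodes interferon beta, passed the test from low counts. It held 115, 111 and 94 counts in Warm M1, 13, 25 and 48 in Cold M1, 34, 59 and 32 in Warm M2 and 62, 45 and 40 in Cold M2. Cold M1 lay below Warm M1 and the M2 groups overlapped, with a difference of 2.31 (SE 0.49, edgeR adjusted p = 0.0413) over all genes, kept in 3 of 12 fits, and 2.01 (SE 0.42, edgeR adjusted p = 0.00861) among progenitor-poor genes, kept in all 12. Progenitors held 0.0339 CPM in Warm and 0.0103 CPM in Cold. Ccr2, the receptor for the chemokine CCL2, was at 609, 494 and 595 CPM in Warm M1, 130.1, 235 and 225 in Cold M1, 192, 295 and 205 in Warm M2 and 48.7, 29.6 and 27.3 in Cold M2. It fell in both populations, and its difference of -1.22 (SE 0.36, edgeR adjusted p = 0.0779) was called only among progenitor-poor genes, at -1.54 (SE 0.27, edgeR adjusted p = 0.00382). Both genes were chosen after their values were seen.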
